A study of Mus musculus with 24 samples.

Results

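8 genes that encode basement membrane proteins other than laminins were examined, which is 8 of the 16730 genes in the deposited table: Col4a1, Col4a2, Col15a1, Col18a1, Nid1, Nid2, Hspg2 and Sparc. They were chosen by gene symbol, and all 8 passed the filter on low counts. RNA came from whole epididymal white adipose tissue (eWAT) of 24 adult male mice and was read near the 3′ end of each transcript by QuantSeq. There were 6 mice in each of 4 groups, made of a genotype and a diet eaten for 20 weeks. Lama4 fl/fl mice carry floxed alleles of Lama4, which encodes the laminin alpha 4 chain, and served as controls without Cre. Their Lama4 AKO littermates carry the same floxed alleles and adiponectin-Cre, which is active in mature adipocytes, so that vessels, immune cells and other stroma of the same tissue keep the gene. The diets were a breeder chow and a high-fat diet (HFD) of 45% fat. The comparisons ask how a high-fat diet, the loss of adipocyte laminin alpha 4, and both together relate to the RNA of the partners of laminin in the basement membrane.

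A basement membrane is the thin sheet of matrix that surrounds each adipocyte and lies under the endothelium of capillaries. It is built from a laminin network bound to cell receptors and a covalently linked network of collagen IV, which are joined by nidogens and by the heparan sulfate proteoglycan perlecan. Collagens XV and XVIII sit on its outer face, and SPARC is a secreted protein that binds collagen IV.

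Col4a1 (ENSMUSG00000031502, chromosome 8, 11198423 to 11312826, reverse strand, GRCm38) and Col4a2 (ENSMUSG00000031503, 11312805 to 11449287, forward strand) encode the chains of the main collagen IV heterotrimer. The genes stand head to head and overlap by 22 bases. Their promoter windows, each 300 bases long in the RefSeq table for GRCm38.p6, are shown because these partner chains are transcribed in opposite directions from 1 stretch of DNA. Each window runs 5′ to 3′ on the strand of its gene, and capitals mark the 78 bases that both windows hold (chr8:11312777-11312854).
Col4a1 promoter, chr8:11312777-11313076, reverse strand: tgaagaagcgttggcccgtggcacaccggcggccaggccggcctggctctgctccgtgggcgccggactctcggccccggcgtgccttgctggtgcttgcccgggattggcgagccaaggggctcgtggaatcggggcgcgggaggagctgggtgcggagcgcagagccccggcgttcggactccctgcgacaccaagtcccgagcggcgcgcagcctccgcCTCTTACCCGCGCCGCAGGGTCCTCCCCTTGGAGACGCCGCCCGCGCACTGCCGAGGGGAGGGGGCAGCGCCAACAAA
Col4a2 promoter, chr8:11312555-11312854, forward strand: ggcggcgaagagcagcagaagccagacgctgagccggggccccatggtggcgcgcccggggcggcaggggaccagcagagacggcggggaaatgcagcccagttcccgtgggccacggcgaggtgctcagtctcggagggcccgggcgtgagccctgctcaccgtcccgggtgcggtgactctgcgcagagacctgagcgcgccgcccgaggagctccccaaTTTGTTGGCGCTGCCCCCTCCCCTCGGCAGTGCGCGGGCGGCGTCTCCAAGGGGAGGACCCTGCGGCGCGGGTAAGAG
The Col4a1 window was 74.0% G and C and the Col4a2 window 73.7%, above 95% of the 32851 windows in the table, whose median was 52.7%. On either strand, GGGCGG occurred once in the Col4a1 window and 3 times in the Col4a2 window, and 1 of these matches lay in the shared bases. CCAAT occurred once in each window, with no match lying wholly within the shared bases (that of the Col4a2 window ends on their first base), and TATAAA in neither. Of all windows, 35.7% held GGGCGG, 37.4% CCAAT and 13.6% TATAAA.

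The other members lie apart from each other. Hspg2 (perlecan) spans 137468769 to 137570630 on the forward strand of chromosome 4, with 97 exons in its longest transcript, and Col15a1 spans 47208161 to 47313167 of the same chromosome. Nid1 spans 13437551 to 13512269 on chromosome 13 and Sparc spans 55394500 to 55423183 on chromosome 11. For 3 members another gene lies over the 3′ end, where the reads fall. The 3′ end of Col18a1 (chromosome 10, 77052178 to 77166548) lies within Slc19a1 on the other strand, that of Nid2 (chromosome 14, 19751265 to 19811787) within Rtraf, and that of Col4a1 within the antisense gene Gm15418. The use of strand in counting is not given in the sources used here, so the counts of these 3 genes may include reads of their neighbours.

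Libraries held between 5579590 and 18764516 counts, and the 8 members together took between 0.521% and 0.959% of them. On the first principal component of all genes, Lama4 fl/fl libraries lay between -91.8 and 46.8 on chow and between -76.1 and 73.5 on HFD, and Lama4 AKO libraries between -74.8 and 22.1 on chow and between 0.85 and 61.5 on HFD. The study set aside outlying mice by principal components without naming them in its text. A set of 19 mice was inferred to be those kept (all but replicates 3, 4 and 6 of HFD-fed Lama4 fl/fl, replicate 3 of chow-fed Lama4 fl/fl and replicate 5 of chow-fed Lama4 AKO). That set was taken over from an earlier analysis of these data, which matched points read by eye from a plot in the study to the deposited counts, and the match was not repeated here. Because such mice were selected by expression, all 24 mice are the main set here and values for the 19 are given beside them. Lama4 itself had a median of 91.6 CPM (counts of a gene scaled to the size of its library) in chow-fed Lama4 fl/fl and 113 CPM in chow-fed Lama4 AKO mice, and 78.6 and 44.2 CPM on HFD. The floxed exon lies far from the 3′ end that was read, so these levels do not show directly whether it was lost. They were not used to check the genotype labels. Whether loss of the exon changed the level of the whole transcript was not tested.

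None of the 8 members met the criteria of the study for a differentially expressed gene (1.5-fold or more in either direction, p no higher than 0.001 before adjustment, and 2 CPM or more on average in the higher group) in any of 6 comparisons, by edgeR or limma-voom with 24 mice or with 19, or by DESeq2 with 24. With 24 mice in edgeR, the share of all 15020 genes tested that met them was 0.173% for HFD against chow in Lama4 fl/fl, 4.12% for HFD against chow in Lama4 AKO, 0.113% for Lama4 AKO against Lama4 fl/fl on chow, 0.173% for the same on HFD, 0.386% for the interaction and 2.24% for diet averaged over genotypes. With 19 mice these shares were 11.8%, 15.7%, 0.209%, 0.565%, 0.68% and 21.4% in the same order. The number of members with an unadjusted p under 0.05 in edgeR was 1, 3, 5, 2, 3 and 1 of 8 in the same order. The corresponding shares of all genes were 9.01%, 39.8%, 5.85%, 14.8%, 15.6% and 35.5%. With 19 mice the numbers were 0, 3, 5, 3, 0 and 4 of 8, and the shares of all genes 41.4%, 49.2%, 8.5%, 11.1%, 12.2% and 57.8%. Genotypes on chow were the 1 comparison with most members under that threshold, in both sets of mice. The criteria of the study were applied here to new fits, and the genes that the study itself called are not reported here.

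**Figure D1:**
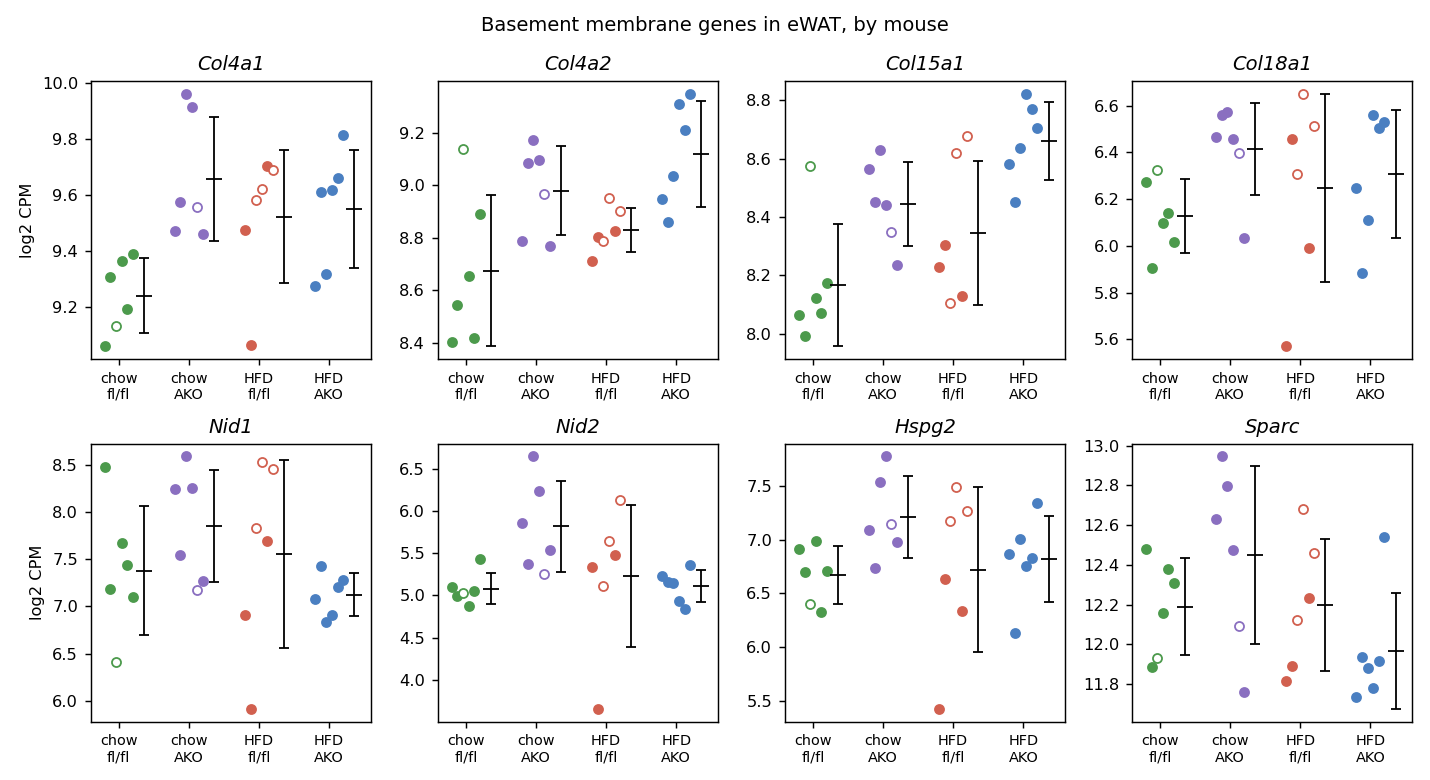
Level of each member in each mouse as log2 CPM, by group. Filled circles are the 19 mice inferred to have been kept by the study, open circles the other 5, and bars the mean and SD of all 6 mice. In Col4a1, the 6 chow-fed Lama4 AKO mice lie above the 6 chow-fed Lama4 fl/fl mice, whereas Nid1, Nid2 and Hspg2 are widely spread in HFD-fed Lama4 fl/fl mice.

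The collagen IV chains are described first. Col4a1 was between 533 and 669 CPM (median 609) in chow-fed Lama4 fl/fl mice and between 705 and 996 CPM (median 757) in chow-fed Lama4 AKO mice. On HFD it was between 535 and 832 CPM (median 777) in Lama4 fl/fl and between 619 and 899.6 CPM (median 782) in Lama4 AKO mice. Every chow-fed Lama4 AKO mouse was above every chow-fed Lama4 fl/fl mouse, while the other pairs of groups overlapped. Col4a1 was the only member with groups that did not overlap in any of the 4 pairwise comparisons, and 0.133% of all genes were separated in this direction on chow. The ratio of means in edgeR on chow was 1.34-fold (95% interval 1.10 to 1.64), with an unadjusted p of 0.00500 and an adjusted p of 0.73. Without any 1 mouse, the log2 difference stayed between 0.36 and 0.48. On HFD the genotypes differed by 0.02 on the log2 scale (95% interval -0.26 to 0.31).

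Within Lama4 fl/fl mice, Col4a1 differed between HFD and chow by 0.29 on the log2 scale (edgeR, unadjusted p = 0.0440, adjusted p = 0.535). Within Lama4 AKO mice the difference was -0.11 (adjusted p = 0.564). The interaction, which is the difference between these diet differences, was -0.40 (95% interval -0.80 to -0.0012, unadjusted p = 0.0494, adjusted p = 0.32) and -0.30 with 19 mice (unadjusted p = 0.209).

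Col4a2 was between 338 and 563 CPM (median 388) in chow-fed Lama4 fl/fl mice and between 436 and 576 CPM (median 521) in chow-fed Lama4 AKO mice. On HFD it was between 419 and 494 CPM (median 449.7) in Lama4 fl/fl and between 464 and 651 CPM (median 558) in Lama4 AKO mice. Both pairs of genotypes overlapped. On chow, replicates 3 (563 CPM) and 6 (474 CPM) of Lama4 fl/fl lay within the range of the Lama4 AKO mice. Of these, replicate 6 is in the set of 19. Lama4 AKO was 1.22-fold of Lama4 fl/fl on chow (95% interval 1.01 to 1.48, edgeR adjusted p = 0.849) and 1.23-fold on HFD (1.01 to 1.49, adjusted p = 0.316). The interaction was 0.01 on the log2 scale, with a 95% interval of -0.38 to 0.40. Thus the partner chains had like differences between genotypes on chow, and on HFD the difference of Col4a2 was 0.30 where that of Col4a1 was 0.02.

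The ratio of Col4a2 to Col4a1 within a library does not depend on how libraries are scaled. As log2 it was -0.56 ± 0.30 (SD, n = 6) in chow-fed Lama4 fl/fl, -0.68 ± 0.12 in chow-fed Lama4 AKO, -0.69 ± 0.22 in HFD-fed Lama4 fl/fl and -0.43 ± 0.17 in HFD-fed Lama4 AKO mice. The groups overlapped in each comparison. In Lama4 AKO mice the ratio differed between HFD and chow by 0.25 (two-sided exact permutation test, p = 0.0238, adjusted p = 0.143 over the 12 tests of 3 ratios). By the same exact permutation test, the genotypes differed in this ratio by 0.26 on HFD (p = 0.0606, adjusted p = 0.242) and by -0.11 on chow (p = 0.50, adjusted p = 0.75), and the diets by -0.13 without Cre (p = 0.452, adjusted p = 0.75).

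**Figure D2:**
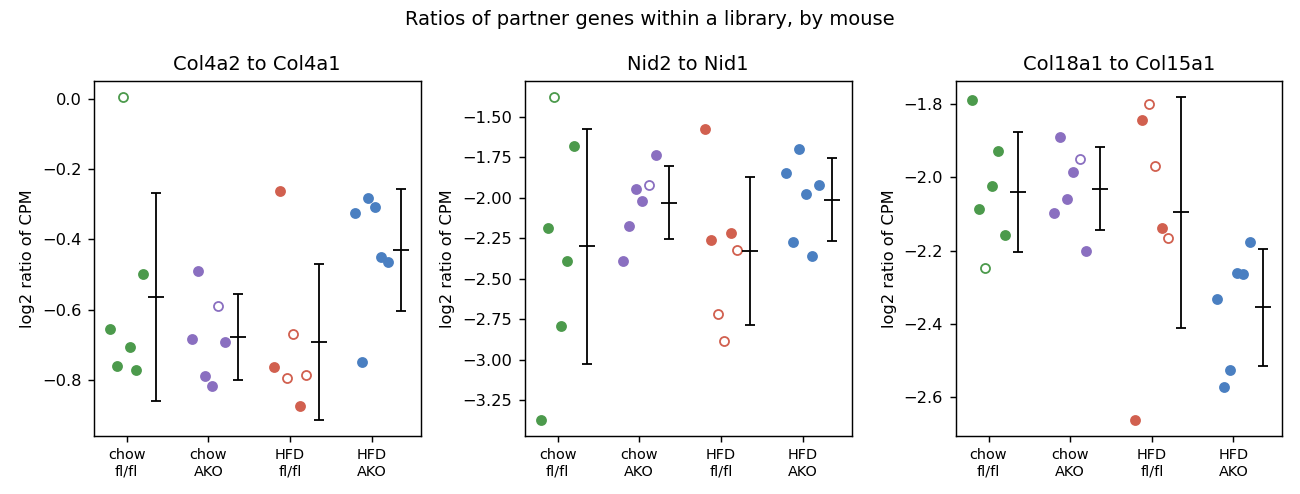
Log2 ratio of the CPM of partner or related genes within each library, by group, with symbols as in the plot of levels by mouse. The ratio of Col18a1 to Col15a1 is lower in most HFD-fed Lama4 AKO mice (mean -2.35) than in chow-fed Lama4 AKO mice (mean -2.03), with overlap between the groups.

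Col15a1 and Col18a1 encode the related collagens XV and XVIII, and the C-terminal fragment of collagen XVIII is endostatin. Col15a1 was between 254 and 381 CPM (median 274) in chow-fed Lama4 fl/fl, 301 and 396 CPM (median 349) in chow-fed Lama4 AKO, 275 and 409 CPM (median 308) in HFD-fed Lama4 fl/fl, and 350.3 and 453 CPM (median 408) in HFD-fed Lama4 AKO mice. The means followed the order chow fl/fl, HFD fl/fl, chow AKO and HFD AKO, and neighbouring groups in this order overlapped. Lama4 AKO was 1.21-fold of Lama4 fl/fl on chow (95% interval 1.003 to 1.45, edgeR adjusted p = 0.849) and 1.24-fold on HFD (1.03 to 1.49, adjusted p = 0.303). With 19 mice these were 1.31-fold (1.11 to 1.53, unadjusted p = 0.00233, adjusted p = 0.445) and 1.36-fold (1.14 to 1.63, unadjusted p = 0.00206, adjusted p = 0.166). Col15a1 was also the only member with an unadjusted p under 0.05 for HFD against chow averaged over genotypes with 24 mice, at a log2 difference of 0.20 (edgeR, unadjusted p = 0.0391, adjusted p = 0.122).

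Col18a1 was between 59.8 and 80.1 CPM (median 69.4) in chow-fed Lama4 fl/fl, 65.3 and 95.01 CPM (median 87.9) in chow-fed Lama4 AKO, 47.3 and 100.4 CPM (median 83.4) in HFD-fed Lama4 fl/fl, and 58.8 and 94.4 CPM (median 83.4) in HFD-fed Lama4 AKO mice. All 4 groups overlapped. No comparison of Col18a1 had an unadjusted p under 0.05 in edgeR, the lowest being 0.0775 for the genotypes on chow (1.22-fold, 95% interval 0.976 to 1.53). The ratio of Col18a1 to Col15a1 differed between HFD and chow by -0.32 on the log2 scale in Lama4 AKO mice (two-sided exact permutation test, p = 0.00433, adjusted p = 0.0519) and by -0.06 in Lama4 fl/fl mice (p = 0.745, adjusted p = 0.929). The smallest p that 6 against 6 mice can give is 0.00216.

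Nidogens link the laminin and collagen IV networks. Nid1 was between 84.8 and 355 CPM (median 159) in chow-fed Lama4 fl/fl and between 144 and 385 CPM (median 245) in chow-fed Lama4 AKO mice. On HFD it was between 60.2 and 369 CPM (median 218) in Lama4 fl/fl and between 114 and 172 CPM (median 141) in Lama4 AKO mice. The HFD-fed Lama4 AKO mice were the closest together of the 4 groups (SD 0.23 in log2 CPM), and the HFD-fed Lama4 fl/fl mice the most spread (SD 0.996). The range of the latter enclosed that of the former. Lama4 AKO was 1.35-fold of Lama4 fl/fl on chow (95% interval 0.809 to 2.24, edgeR adjusted p = 0.952). On HFD it was 0.633-fold, a log2 difference of -0.66 (95% interval -1.40 to 0.077, adjusted p = 0.373), and 0.12 with 19 mice (adjusted p = 0.949).

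Nid2 was between 29.2 and 42.9 CPM (median 32.7) in chow-fed Lama4 fl/fl and between 37.9 and 99.9 CPM (median 51.99) in chow-fed Lama4 AKO mice. On HFD it was between 12.5 and 69.8 CPM (median 42.4) in Lama4 fl/fl and between 28.5 and 41.0 CPM (median 35.4) in Lama4 AKO mice. The chow-fed Lama4 AKO mice were the highest group, with overlap. On chow, Lama4 AKO was 1.76-fold of Lama4 fl/fl (95% interval 1.20 to 2.60, edgeR unadjusted p = 0.00572, adjusted p = 0.744), at the 98.6th percentile of the fold changes of all genes, and on HFD 0.829-fold (0.564 to 1.22, adjusted p = 0.612).

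In Lama4 AKO mice, Nid2 fell with HFD at an adjusted p of 0.0413 in edgeR, by 0.79 on the log2 scale (0.580-fold, 95% interval 0.394 to 0.853). It was the only 1 of 8 members with an adjusted p of at most 0.05 in any comparison with 24 mice, and 22.1% of all genes had such a value in this comparison. Nid1 differed by -0.81 (0.571-fold, 95% interval 0.342 to 0.952, unadjusted p = 0.0332, adjusted p = 0.0966). With 19 mice the differences were -0.89 for Nid2 (adjusted p = 0.0111) and -0.92 for Nid1 (adjusted p = 0.0189), where 40.3% of all genes had an adjusted p of at most 0.05. Chow-fed Lama4 AKO replicate 3 was the highest mouse of its group for both genes. Without it the difference was -0.58 for Nid2 (unadjusted p = 0.0373, edgeR adjusted p = 0.133) and -0.64 for Nid1 (unadjusted p = 0.0952). The call of Nid2 was thus not stable: leaving out 1 mouse of either group gave an adjusted p between 0.019 and 0.133, at most 0.05 in 4 of 12 fits, and it was 0.0698 by limma-voom and 0.0562 with the replicate number as a block.

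In Lama4 fl/fl mice, HFD and chow differed by 0.30 for Nid2 (edgeR adjusted p = 0.746) and 0.28 for Nid1 (adjusted p = 0.839). The interaction was -1.09 for each gene, with an unadjusted p of 0.00855 and an adjusted p of 0.25 for Nid2, and 0.0408 and 0.307 for Nid1. These values depended on the HFD-fed Lama4 fl/fl mice used. Without replicate 2 of that group, the lowest for both genes, the interaction of Nid2 was -1.28 (unadjusted p = 0.000241) and met the criteria of the study. With 19 mice it was -0.81 for Nid2 (unadjusted p = 0.0581) and -0.27 for Nid1 (unadjusted p = 0.562), and the diet difference of Nid1 in Lama4 fl/fl mice was -0.65. The ratio of Nid2 to Nid1 differed between groups by at most 0.32 on the log2 scale, with exact permutation p of 0.171 or more in its 4 comparisons.

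**Figure D3:**
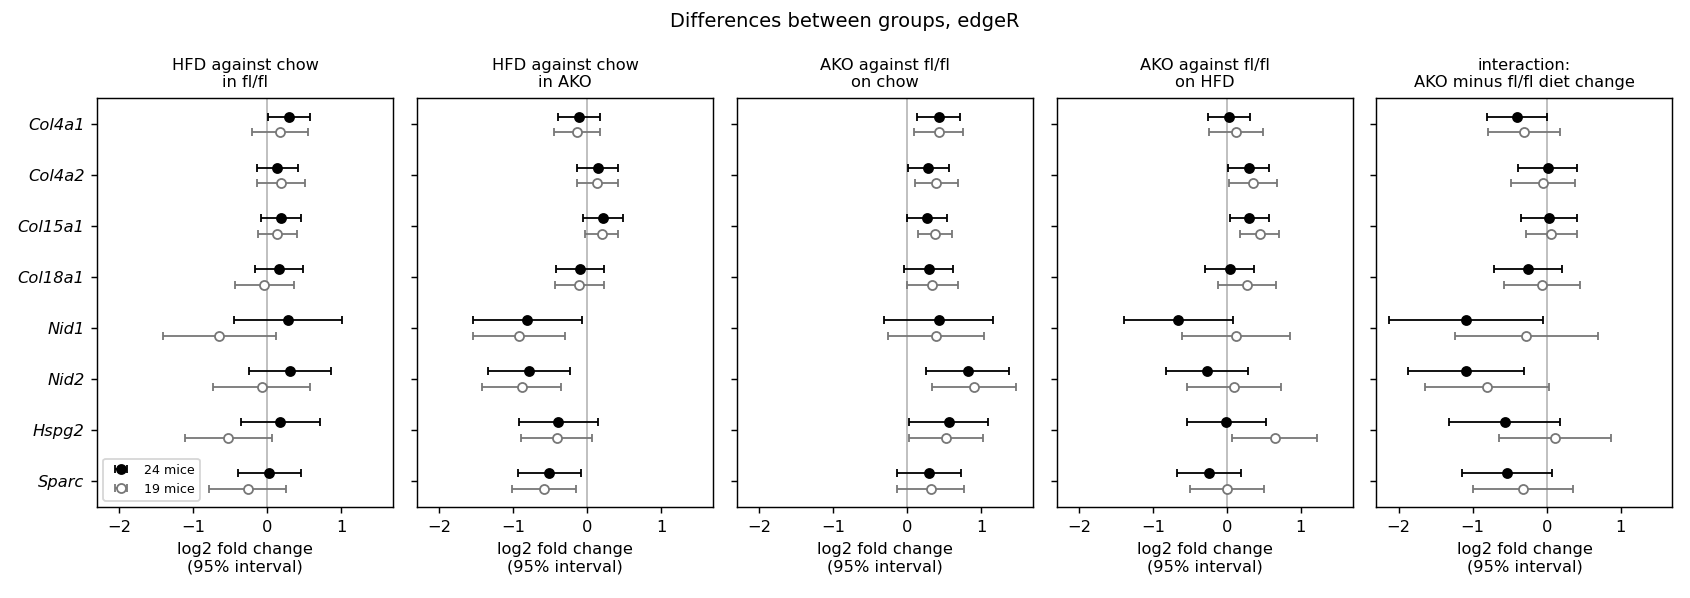
Log2 fold change of each member with its 95% interval in 5 comparisons, from edgeR. Black circles are fits of 24 mice and open circles fits of 19 mice, and the fifth panel is the diet difference in Lama4 AKO minus that in Lama4 fl/fl. On chow all 8 members lie to the right of 0 with both sets of mice, and for HFD against chow in Lama4 fl/fl mice Col18a1, Nid1, Nid2, Hspg2 and Sparc change side between the sets.

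Hspg2 encodes perlecan, whose heparan sulfate chains bind growth factors. It was between 79.9 and 127 CPM (median 104) in chow-fed Lama4 fl/fl, 107 and 218 CPM (median 139) in chow-fed Lama4 AKO, 42.8 and 179 CPM (median 122) in HFD-fed Lama4 fl/fl, and 69.8 and 162 CPM (median 115) in HFD-fed Lama4 AKO mice. The chow-fed Lama4 AKO mice had the highest mean and overlapped each other group. Lama4 AKO was 1.48-fold of Lama4 fl/fl on chow (95% interval 1.02 to 2.14, edgeR unadjusted p = 0.0400, adjusted p = 0.849). On HFD the genotypes were 0.997-fold apart with 24 mice (0.689 to 1.44) and 1.57-fold with 19 (1.05 to 2.33, adjusted p = 0.376). Averaged over genotypes, HFD and chow differed by -0.11 on the log2 scale with 24 mice (adjusted p = 0.694) and by -0.47 with 19 (adjusted p = 0.0369, in a comparison where 51.9% of all genes had an adjusted p of at most 0.05). In that fit of 19 mice Nid1 (-0.79, adjusted p = 0.00968) and Sparc (-0.42, adjusted p = 0.0356) were also under this threshold, 3 of 8 members in all.

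Sparc encodes a calcium-binding matricellular protein that adipocytes and stromal cells secrete. It was between 3786 and 5714 CPM (median 4815) in chow-fed Lama4 fl/fl and between 3466 and 7889.7 CPM (median 6019) in chow-fed Lama4 AKO mice. On HFD it was between 3602 and 6570.4 CPM (median 4630.0) in Lama4 fl/fl and between 3414 and 5952 CPM (median 3820.1) in Lama4 AKO mice. Replicate 6 stood above the other 5 HFD-fed Lama4 AKO mice, which did not exceed 3922.5 CPM. In Lama4 AKO mice HFD was 0.701-fold of chow (95% interval 0.521 to 0.943, edgeR unadjusted p = 0.0211, adjusted p = 0.0728), and 0.668-fold with 19 mice (adjusted p = 0.0303). Without chow-fed Lama4 AKO replicate 2, the highest of its group, the unadjusted p was 0.0661. In Lama4 fl/fl mice HFD was 1.02-fold of chow (0.757 to 1.37).

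On chow the medians over the members and over all genes were also set side by side. All 8 members had a higher fitted level in Lama4 AKO than in Lama4 fl/fl mice on chow, with a median log2 difference of 0.36 against 0.00408 over all genes tested, of which 50.6% were higher. With 19 mice all 8 were again higher, with a median of 0.40. Among the lists described below, the median with 24 mice was 0.23 for other basement membrane components and 0.094 for laminin chains. It was 0.28 for endothelial, 0.31 for mural cell, 0.45 for mesothelial, 0.16 for adipocyte, -0.16 for fibroblast and progenitor and -0.56 for macrophage markers. A shift upward on chow was thus not particular to the 8 members. The adjusted p of single members lay between 0.73 and 0.952 in edgeR, and between 2 and 7 members had an unadjusted p under 0.05 when 1 mouse was left out. On HFD 4 of 8 were higher, with a median of 0.00921 against -0.03 over all genes, and with 19 mice 8 of 8, with a median of 0.20 against 0.03. The members are not independent of each other, and the control mice of each diet are shared by all 8 values.

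Beside these differences, markers of the cell types in the tissue were measured. Fewer cells of a type and less RNA per cell cannot be told apart in bulk tissue. Adipocyte markers (8 genes) summed to between 23086 and 48552.5 CPM in chow-fed and between 18511 and 33774 CPM in HFD-fed Lama4 AKO mice, and 6 of 8 were lower with HFD at an unadjusted p under 0.05 in edgeR. Endothelial markers were lower in 9 of 10, mural cell markers in 4 of 10 (with 1 higher) and mesothelial markers in 4 of 7. Macrophage markers were higher in 4 of 8 and fibroblast and progenitor markers in 6 of 10. Of all genes, 21.6% were lower and 18.2% higher at that threshold in this comparison. With 19 mice macrophage markers were higher in 8 of 8, where 49.2% of all genes were under that threshold in either direction. In Lama4 fl/fl mice, where 5 members changed sign between the sets, the median log2 difference between HFD and chow was -0.07 for adipocyte, -0.10 for endothelial and 0.066 for macrophage markers with 24 mice, and -1.26, -0.58 and 0.80 with 19. At the same threshold, 0 of 8 adipocyte markers were lower with 24 mice and 6 of 8 with 19, and 0 and 5 of 10 endothelial markers. Of the macrophage markers 0 and 1 of 8 were higher, and 1 was lower with 24 mice. Mural cell markers were higher in 1 of 10 with 24 mice, and with 19 higher in 2 and lower in 3. Fibroblast and progenitor markers were higher in 2 of 10 with 24 mice, and with 19 higher in 4 and lower in 1. Of all genes, 9.01% with 24 mice and 41.4% with 19 were under this threshold in either direction. In Lama4 AKO mice, sums of endothelial markers ran from 500.4 to 1108 CPM on chow and from 367 to 740.2 CPM on HFD. Sums of macrophage markers ran from 2074 to 8011 CPM and from 6712 to 12601 CPM in these mice. In Lama4 fl/fl mice the endothelial sums ran from 471 to 890 CPM on chow and from 332 to 921 CPM on HFD. The macrophage sums there ran from 1407 to 11293 CPM and from 2064 to 12965 CPM. For the genotypes on chow, the median sums of fl/fl and AKO mice were 40493 and 39451 CPM for adipocyte, 635 and 857 CPM for endothelial, 440.3 and 704 CPM for mural cell, 7145 and 3841 CPM for macrophage and 6386 and 5097 CPM for fibroblast and progenitor markers. Of these lists, 1 adipocyte marker (higher), 2 fibroblast and progenitor markers (lower) and no endothelial, mural cell or macrophage marker had an unadjusted p under 0.05 in that comparison. These counts are with 24 mice, where the share of all genes was 5.85%. With 19 mice, 1 adipocyte, 2 endothelial and 2 mural cell markers were higher at that threshold. Lower were 1 macrophage and 2 fibroblast and progenitor markers, and the share of all genes was 8.5%. For Lama4 AKO against Lama4 fl/fl on HFD, the median log2 difference with 24 mice was -0.81 for adipocyte, -0.28 for endothelial and 0.54 for macrophage markers. With 19 mice it was 0.17, 0.23 and -0.062. At the same threshold, 3 of 8 adipocyte and 1 of 10 endothelial markers were lower and 1 of 8 macrophage markers higher with 24 mice. With 19, only 1 endothelial marker (lower) of these lists was. The shares of all genes were 14.8% and 11.1%. Epididymal epithelium markers summed to at most 20.8 CPM in any library. The part of cell composition in the group differences was not tested.

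Members were then compared with these sums between mice of the same group, after each group's mean was removed, a relation chosen after the data had been seen. Of 40 relations of 8 members to 5 marker sums, 16 had an adjusted p of at most 0.05 over 24 mice (100000 permutations within groups). The share of all genes with such relations was not measured, so this count cannot be read as particular to the members. Sparc followed the adipocyte sum (r = 0.885, Spearman's rho 0.88, p = 1e-05 for each, the smallest that the permutations can give, adjusted p = 0.0002), with r = 0.889 without the 2 mice farthest from the median and 0.925 with 19 mice. Nid1 was lower in mice with a higher macrophage sum (r = -0.885, rho = -0.843, p = 1e-05 and adjusted p = 0.0002 for each), with r = -0.857 without the 2 farthest mice and -0.781 with 19 mice. Hspg2 followed the endothelial sum (r = 0.762, rho = 0.718, permutation p = 0.0002 and 0.0005, adjusted p = 0.00133 and 0.00303), with r = 0.742 without the 2 farthest mice and 0.685 with 19. Each of these genes had an adjusted p of at most 0.05 for the adipocyte, endothelial, mural cell and macrophage sums. For the mural cell sum, r was 0.831 for Sparc, 0.753 for Nid1 and 0.66 for Hspg2. For the adipocyte sum it was 0.772 for Nid1 and 0.636 for Hspg2. Whether a relation was particular to 1 cell type was not tested.

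Col4a1, Col4a2 and Col15a1 had no relation with an adjusted p of at most 0.05 to any of the 5 sums. Their largest r in size were 0.372 for Col4a1 and the adipocyte sum (adjusted p = 0.208), 0.25 for Col4a2 and the endothelial sum (adjusted p = 0.282) and -0.511 for Col15a1 and the fibroblast and progenitor sum (adjusted p = 0.076). With 19 mice 6 of the 40 relations had an adjusted p of at most 0.05, and without replicate 4 of HFD-fed Lama4 fl/fl mice 10 had. Whether the relations differ between members was not tested.

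**Figure D4:**
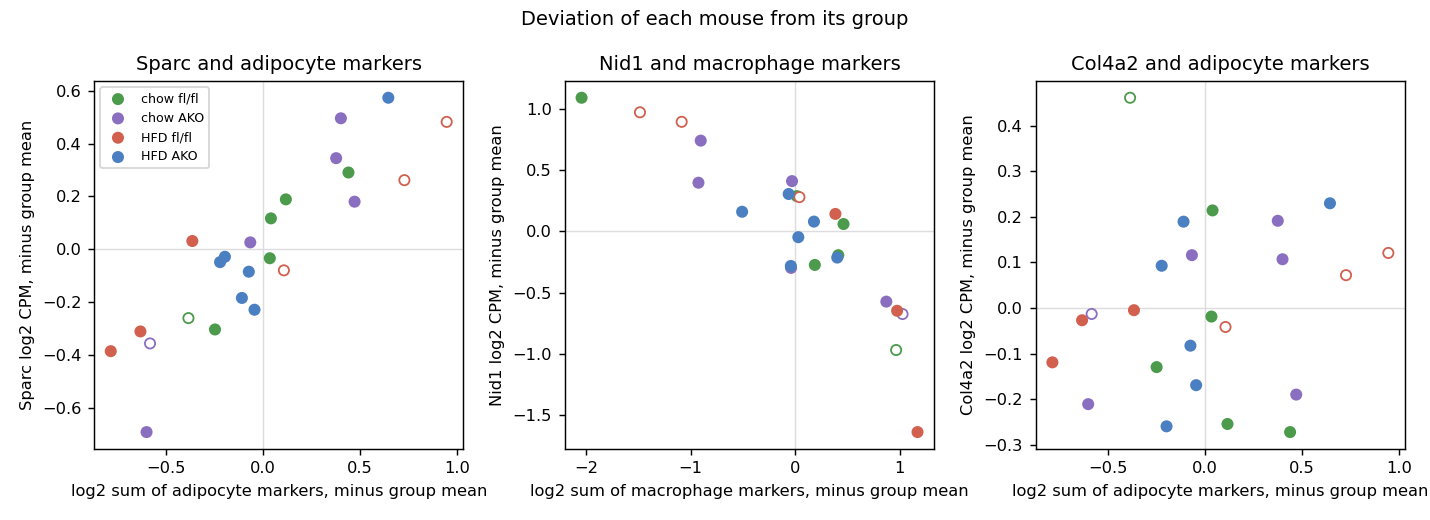
Deviation of each mouse from its group mean in log2 CPM (vertical) and in the log2 sum of a marker list (horizontal), colored by group, with the 5 mice outside the set of 19 open. Sparc rises with the adipocyte sum (r = 0.885) and Nid1 falls with the macrophage sum (r = -0.885), whereas Col4a2 is scattered against the adipocyte sum (r = 0.16).

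Between members, 27 of 28 within-group correlations were positive and 9 had an adjusted p of at most 0.05 (8 by Spearman's rho). The share among pairs of other genes was not measured, so these counts cannot be read as particular to the members. The collagen IV chains had r = 0.443 (permutation p = 0.0207, adjusted p = 0.0581) and rho = 0.587 (p = 0.00461, adjusted p = 0.0258), with r = 0.474 without the 2 mice farthest from the median and 0.624 with 19 mice. Col4a2 and Col15a1 had r = 0.70 (p = 7e-05, adjusted p = 0.00196) and rho = 0.681 (p = 0.00015, adjusted p = 0.00266), with r = 0.586 without the 2 farthest mice. Nid1 and Nid2 had r = 0.736 (p = 0.00114, adjusted p = 0.00734) and rho = 0.601 (p = 0.00744, adjusted p = 0.0347), with r = 0.595 without those mice. Within the groups of 6, r of the nidogens was -0.105 in chow-fed Lama4 fl/fl, 0.925 in chow-fed Lama4 AKO, 0.889 in HFD-fed Lama4 fl/fl and 0.258 in HFD-fed Lama4 AKO mice. Nid1 and Col4a2 were the only pair with a negative r (-0.125). With 19 mice 25 of 28 were positive, and the smallest adjusted p was 0.0735.

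**Figure D5:**
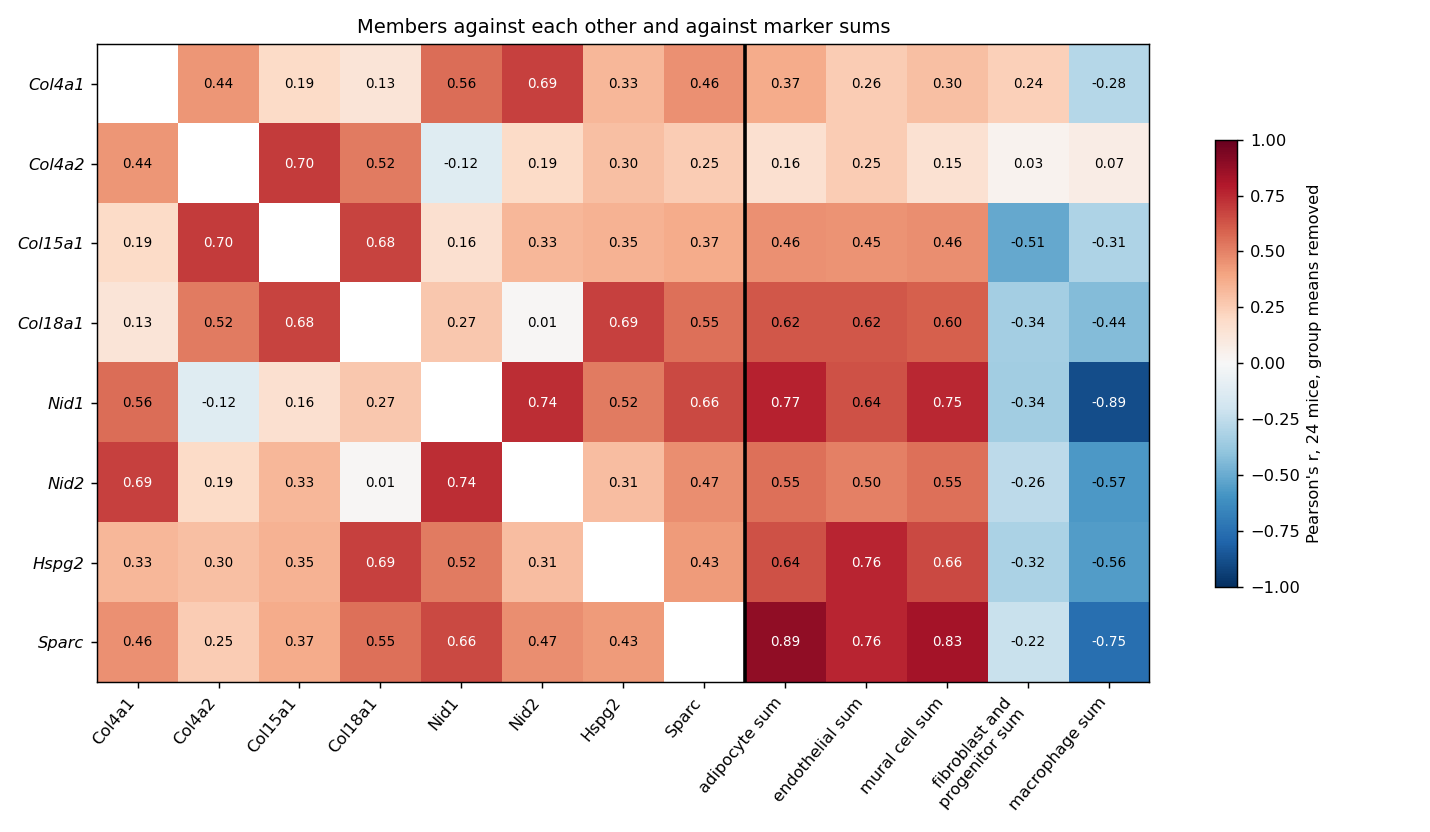
Pearson's r over 24 mice after group means were removed, for each pair of members (left of the line) and for each member against the log2 sum of 5 marker lists (right). Red is positive and blue negative. Sparc and Nid1 have strong colors in the adipocyte, endothelial, mural cell and macrophage columns, whereas Col4a1 and Col4a2 are pale in the marker columns.

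Other genes of the basement membrane were counted in HFD against chow in Lama4 AKO mice, where the criteria of the study were met by 4.12% of all genes. Of 26 other basement membrane components, 24 were tested and 2 met the criteria, both lower. Col4a4, which encodes a collagen IV chain of other trimers, fell by 1.53 on the log2 scale (SE 0.38, edgeR adjusted p = 0.0179), and Fras1, which encodes an extracellular matrix protein of epithelial basement membranes, fell by 2.29 (SE 0.61, adjusted p = 0.0207). Of 10 laminin chain genes tested, 1 met the criteria: Lama2, the alpha chain of muscle laminin, rose by 0.80 (SE 0.17, adjusted p = 0.0124). The median log2 difference of the 10 was -0.22. Lama4 itself fell by 1.05 (SE 0.35, edgeR adjusted p = 0.0364) without meeting the criteria. No gene met them among 18 for collagen folding, modification and secretion and 16 for enzymes that make, modify or cleave heparan sulfate chains. None of 5 genes for receptors of collagen IV and perlecan met them either. At an unadjusted p under 0.05 in edgeR, 3 of the 24 other components were higher and 7 lower. Of the 10 laminin chain genes, 1 was higher and 4 lower. In the other lists, 6 of the 18 were higher and 3 lower, 9 of the 16 were higher and none lower, and 3 of the 5 were lower. Of all genes, 18.2% were higher and 21.6% lower. With 19 mice, 15.7% of all genes met the criteria. They were met by 5 of 24 other components (1 higher and 4 lower) and by 2 of 10 laminin chain genes (1 higher, 1 lower). In that fit, 2 of 18 genes for collagen folding, modification and secretion and 3 of 16 for heparan sulfate chain enzymes met them, all higher. Of 5 receptor genes, 2 met them, both lower.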

How the data were processed

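Counts per gene of 24 QuantSeq libraries (eWAT, 6 mice in each of 4 groups) were deposited by the authors as raw read counts, made with the Lexogen QuantSeq pipeline on the Bluebee platform, on GRCm38. Rsubread is also named in the methods of the study as the source of its count matrices. A second table, deposited by the authors as a normalized signal, holds the same counts divided by 1 size factor per library and was used for gene symbols and coordinates. R 4.0.3 and DESeq2 1.30 are named in the submitters' processing notes. The aligner version and the use of strand are not given in the sources used here.

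Genes with at least 1 CPM in 3 or more mice were kept (15020 of 16730), counts were scaled by TMM, and 1 quasi-likelihood model over all 4 groups was fitted with edgeR 4.0.16 in R 4.3.3. P-values were adjusted by Benjamini and Hochberg over all genes tested. Log2 CPM used a prior count of 2. Ratios were compared by exact permutation tests and correlations by permutation within groups, both written with NumPy 2.4.6. Ranks were taken with SciPy 1.17.1. Alternatives were limma-voom (limma 3.58.1), DESeq2 1.42.0, RLE size factors, other filters and criteria, separate fits of each pair of groups, a block for the replicate number, the 19 mice, and leaving out single mice. The fit of limma-voom to the 19 mice and the relations to marker sums were added after seeing the data. Scripts were tested on simulated data. No libraries of a group agreed within counting error (smallest chi-square per degree of freedom 6.07 over 60 pairs). Replicates are separate mice. No sequencing batch is given in the labels.

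Genes named are the 8 members, Lama4, up to 3 genes with the lowest p among those called in each context list in HFD against chow in Lama4 AKO, and the 5 genes most correlated with the mean of Col4a1 and Col4a2. The members, lists and tests were chosen with earlier results of these data known. Promoter windows were those of RefSeq, with a window for 7 of the 8 members.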

Additional observations from a re-analysis of the deposited data

Results flagged for a closer look

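In 6 of 44 sets of 6 mice, 1 mouse stood apart from the other 5 by Dixon's test, where chance gives about 1 in 20. The figures in parentheses are the gap to the nearest mouse as a share of the range of the group. Col4a1 was lowest in replicate 2 of HFD-fed Lama4 fl/fl mice (0.645, at 9.06 log2 CPM) and the ratio of Col4a2 to Col4a1 was highest in the same mouse (0.666, at a log2 ratio of -0.26). Replicate 3 of chow-fed Lama4 fl/fl mice was highest for Col15a1 (0.689, at 8.58 log2 CPM) and for the ratio of Col4a2 to Col4a1 (0.648, at a log2 ratio of 0.0057). Col18a1 was lowest in replicate 6 of chow-fed Lama4 AKO mice (0.675, at 6.03 log2 CPM), and Sparc was highest in replicate 6 of HFD-fed Lama4 AKO mice (0.75, at 12.54 log2 CPM). Of these 4 mice, only replicate 3 of chow-fed Lama4 fl/fl is outside the set of 19.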

How the results depend on the processing

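The number of members that met the criteria was 0 in 158 of 160 other fits or criteria. It was 1 (Nid2) for HFD against chow in Lama4 AKO at an adjusted p of at most 0.05 (a threshold that Nid2 also passed in 7 of 9 other fits of 24 or fewer mice and in 4 of 12 that left out 1 mouse), and between 0 and 1 for the interaction when 1 mouse was left out. Of 1280 values of single members, 72 had the other sign, in 15 of 48 results. With 19 mice the log2 difference of HFD against chow in Lama4 fl/fl was -0.041 for Col18a1, -0.65 for Nid1, -0.078 for Nid2, -0.53 for Hspg2 and -0.27 for Sparc, and by limma-voom on them -0.081, -0.74, -0.27, -0.60 and -0.27. Lama4 AKO against Lama4 fl/fl on HFD was then 0.12 for Nid1, 0.099 for Nid2, 0.65 for Hspg2 and 0.0023 for Sparc (limma-voom 0.29 for Nid1, 0.29 for Nid2 and 0.69 for Hspg2). Averaged over genotypes, Col18a1 was -0.072 with 19 mice and -0.096 by limma-voom on them. The interaction of Hspg2 was 0.12 and 0.20 in those fits. That of Col4a2, 0.01 in edgeR, was -0.048 with 19 mice, -0.061 by limma-voom on them, -0.018 by limma-voom, -0.027 by DESeq2 and with RLE size factors and -0.014 without a filter, and that of Col15a1 was -0.0038 by DESeq2 and -0.0036 with RLE size factors. In fits of only the groups compared, the genotypes on HFD differed by -0.014 for Col4a1 and -0.0055 for Col18a1, and by limma-voom by 0.091 for Hspg2. The cause of these changes was not tested.

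With 19 mice, the log2 ratio differed by 0.044 for Col4a2 to Col4a1 and 0.47 for Nid2 to Nid1 between diets in Lama4 fl/fl, and by -0.049 for Col18a1 to Col15a1 between genotypes on chow. No pair of members (0) and 6 relations to marker sums had an adjusted p of at most 0.05. When 1 mouse was left out, those relations numbered between 10 and 21. The interaction then ranged from -0.060 to 0.11 for Col15a1 and from -0.094 to 0.063 for Col4a2. The genotypes on HFD ranged from -0.055 to 0.059 for Col4a1, from -0.072 to 0.12 for Col18a1 and from -0.18 to 0.16 for Hspg2, and HFD against chow from -0.084 to 0.096 for Sparc in Lama4 fl/fl and from -0.013 to 0.085 for Col18a1 averaged over genotypes. The ratio of Col4a2 to Col4a1 ranged from 0.22 to 0.31 between diets in Lama4 AKO, from 0.23 to 0.35 between genotypes on HFD and from -0.15 to 0.00085 on chow. The ratio of Nid2 to Nid1 ranged from -0.054 to 0.088 between diets in Lama4 AKO and from -0.24 to 0.15 in Lama4 fl/fl. The ratio of Col18a1 to Col15a1 ranged from -0.36 to -0.28 between diets in Lama4 AKO, from -0.12 to 0.056 in Lama4 fl/fl, from -0.37 to -0.20 between genotypes on HFD and from -0.034 to 0.058 on chow.

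Replicate numbers are shared by the groups. Deviations of same-numbered mice correlated above 0.1 in 1 to 4 of 6 pairs, depending on the groups, so the numbers were not taken to pair the mice. With the replicate block, 0 members met the criteria in each of the 6 comparisons, the genotypes on HFD differed by 0.052 for Hspg2, the interaction of Col4a2 was -0.0054, Nid2 had an adjusted p of 0.0562 for HFD against chow in Lama4 AKO, and no ratio had an adjusted p of at most 0.05.

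The spread of HFD-fed Lama4 fl/fl mice limits what can be said of that group, since 3 of its 6 mice are outside the set of 19. The counts of Col4a1, Col18a1 and Nid2 may hold reads of overlapping genes.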

Other observations

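Over the 24 libraries, with group means removed, the genes most like the mean of Col4a1 and Col4a2 among the 15020 tested, after these chains themselves, were Fam83d (r = 0.766), Arl14epl (0.724), Lrrc8b (0.699), Il20rb (0.698) and Mgst2 (0.692). The other members stood lower in this order, with r between 0.259 for Nid1 and 0.522 for Nid2 and Col15a1. These are descriptions without a test.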
